A study of Mus musculus with 36 samples.

Results

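The nuclear-encoded subunits of the mitochondrial respiratory chain were followed through the germ and supporting cells of the fetal mouse gonad. Members were chosen by gene symbol alone: every gene with a probe set of a single platform symbol beginning with Ndufa, Ndufb, Ndufc, Ndufs or Ndufv and a digit, with Uqcr, with Cox4 to Cox8 or with Atp5, and the Sdha to Sdhd genes. This gave 81 of the 19938 genes on the array, namely 35 of complex I, 4 of complex II, 8 of complex III, 17 of complex IV and 17 of complex V. All 81 passed the filter on dim genes, which left 17571 genes in the tests. Each gene was read from its probe set with the highest mean, and 16 members had other probe sets as well. None of those members had probe sets of opposite sign between germ and supporting cells. The platform table gives no positions, so probe sets of a gene and of its near-identical copies elsewhere in the genome cannot be told apart here.

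The study sorted cells from XY and XX gonads at 3 stages that the labels give as TS13, TS24 and TS34, placed before, during and after sexual differentiation. RNA was read on Affymetrix Mouse Gene 1.0 ST arrays, with 36 arrays in 12 groups of 3. Gonads were pooled by sex before trypsin digestion and sorting, so an array stands for pooled fetuses, and nothing in the labels says whether the 3 arrays of a group came from separate pools. P-values therefore measure the spread between arrays, which may be technical.

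Germ cells of both sexes came at every stage from mice with an Oct4 reporter, progeny of C57BL/6NJ on a mixed background. XY supporting cells came at TS13 from the Tg(Sry-EGFP)92Ei line with CD-1 parents, and at TS24 and TS34 from the Tg(Sox9-cre/ERT2)1Msan/J line with C57BL/6 parents. XX supporting cells came from the Tg(Sry-EGFP)92Ei line at all 3 stages. Cell type thus cannot be told apart from reporter line in any germ against supporting comparison. In XY supporting cells stage cannot be told apart from line, nor can sex from line at TS24 and TS34.

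The labelled cell types were checked against marker genes. The mean log2 level of 5 germ markers (Pou5f1, Ddx4, Dppa3, Dazl and Kit) ran from 10.57 to 11.27 on the germ arrays used and from 5.51 to 6.88 on supporting arrays. Wt1, a defining supporting cell gene, averaged 10.87 to 11.63 in the supporting groups, against 7.46 to 7.69 in the germ groups. Amh, made by Sertoli cells, averaged 10.0 and 9.84 in XY supporting cells at TS24 and TS34 and 5.83 to 6.19 in the other groups. Fst averaged 11.43 to 12.24 in the XX supporting groups and 6.65 to 7.94 in the other groups. Foxl2, a defining gene of XX supporting cells, stood between 5.99 and 6.61 in all 12 groups and did not mark any. Replicate 3 of XX germ cells at TS24 went against its label, with Pou5f1 at 5.07 and Wt1 at 11.19, and was left out. The remaining 35 arrays had medians between 6.41 and 6.84 over all probe sets, so the deposited values were not on a common distribution. Counts are therefore given on the deposited scale and, where they changed, also after quantile normalization, which forces all arrays onto a single distribution.

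Complex I (NADH dehydrogenase) and complex II (succinate dehydrogenase) feed electrons to ubiquinone, complex III passes them to cytochrome c, and complex IV (cytochrome c oxidase) hands them to oxygen. The proton gradient built on the way drives complex V, the ATP synthase. Most subunits are encoded in the nucleus, and several of complex IV exist as isoforms that are restricted to muscle, lung or testis. Germ cells of the male are known for such isoforms, among them the cytochrome c of testis.

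Promoter sequences of the genes the results turn on are shown here because some members held short sequence motifs that the choice by symbol did not use. The RefSeq promoter table (GRCm38.p6) held 66 of the 81 members, each with 250 bases before and 50 bases after the start. The core of the NRF1 motif, GCGCATGCG, stood on either strand in 8 of the 66 (12.1%), against 1.81% of all 27025 promoters. The ETS/GABP core CCGGAAG stood in 16 (24.2%), against 9.12% of all promoters. YY1's core GATGGCGG was in 5 (7.58%, against 1.74%) and the ERR core TCAAGGTCA in 2 (3.03%, against 0.407%). A match is a description of letters in the window and not a measured binding site. Atp5g2 (chr15:102670998-102671297, minus strand) and Uqcr11 (chr10:80406772-80407071, minus strand) held NRF1 cores, and Uqcr11 held an ETS/GABP core as well. In Atp5g2 the matches on the plus and the minus strand overlap in a single palindrome. Cox7a1 (chr7:30183921-30184220, plus strand), Cox7b2 (chr5:71548156-71548455, minus strand) and Cox6b2 (chr7:4753045-4753344, minus strand), the 3 isoform genes with the widest ranges in complex IV, held none of the 4 cores in these windows. Capitals mark the matches, first in the NRF1 core of Atp5g2, then in the ETS/GABP and NRF1 cores of Uqcr11.
Atp5g2: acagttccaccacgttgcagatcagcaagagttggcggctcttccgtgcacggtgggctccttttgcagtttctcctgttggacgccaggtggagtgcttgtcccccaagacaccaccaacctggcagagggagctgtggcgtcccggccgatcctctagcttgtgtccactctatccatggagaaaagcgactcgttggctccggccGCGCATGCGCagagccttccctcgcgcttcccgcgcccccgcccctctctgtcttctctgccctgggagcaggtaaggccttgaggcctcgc
Uqcr11: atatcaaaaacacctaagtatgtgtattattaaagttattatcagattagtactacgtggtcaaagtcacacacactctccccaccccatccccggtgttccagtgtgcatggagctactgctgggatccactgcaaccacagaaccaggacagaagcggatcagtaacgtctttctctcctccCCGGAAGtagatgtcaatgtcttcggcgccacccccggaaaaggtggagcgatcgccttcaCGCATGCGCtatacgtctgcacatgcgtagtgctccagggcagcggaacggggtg
Cox7a1: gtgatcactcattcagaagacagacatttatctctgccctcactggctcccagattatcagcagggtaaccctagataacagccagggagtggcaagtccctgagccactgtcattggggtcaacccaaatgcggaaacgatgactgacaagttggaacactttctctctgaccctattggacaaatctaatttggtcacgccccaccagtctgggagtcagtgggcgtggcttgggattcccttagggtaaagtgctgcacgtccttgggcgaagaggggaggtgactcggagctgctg
Cox7b2: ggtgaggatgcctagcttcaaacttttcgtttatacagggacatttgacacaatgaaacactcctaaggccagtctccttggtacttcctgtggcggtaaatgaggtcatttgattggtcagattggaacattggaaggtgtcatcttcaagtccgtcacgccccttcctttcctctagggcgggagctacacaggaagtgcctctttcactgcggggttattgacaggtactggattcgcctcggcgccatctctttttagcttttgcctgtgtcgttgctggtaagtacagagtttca
Cox6b2: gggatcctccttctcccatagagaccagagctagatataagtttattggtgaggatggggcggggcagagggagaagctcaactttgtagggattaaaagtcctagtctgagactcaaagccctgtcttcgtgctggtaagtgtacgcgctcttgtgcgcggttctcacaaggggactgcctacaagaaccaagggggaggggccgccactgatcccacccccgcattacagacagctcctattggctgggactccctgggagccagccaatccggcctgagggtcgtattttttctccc

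The first comparison asked how germ cells differed from supporting cells, averaged over sexes and stages. On the deposited scale 50 of the 81 members were higher in germ cells and 0 were lower (limma, adjusted p under 0.05 over all 17571 genes). Over all genes tested, 32.9% were called higher and 20.3% lower. The median difference, germ minus supporting, was 0.28 on the log2 scale over the members and 0.08 over all genes, and 76 of the 81 members had a positive difference. Calls higher in germ cells numbered 23 of 35 in complex I, 2 of 4 in complex II, 6 of 8 in complex III, 9 of 17 in complex IV and 10 of 17 in complex V. No member had germ and supporting arrays fully apart, so the calls rest on averages of 17 against 18 arrays.

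After quantile normalization 31 members were higher and 10 lower in germ cells, against 24.8% and 30.0% of all genes. The median over the members was then 0.07, against -0.04 over all genes, so that this scaling moved the median of all genes from its deposited value by over 0.1. All 31 of the higher calls were also among the 50 of the deposited scale, and no member was called in opposite directions on the 2 scales. Ndufa12, Cox6b2 and Atp5j were among the 10 lower calls of the quantile scale, at -0.29, -0.39 and -0.32. On the deposited scale the same 3 genes stood at -0.05, -0.14 and -0.07 and were not called. How the split depended on scaling also showed over all genes, with 5785 higher and 3560 lower on the deposited scale, against 4365 and 5271 after quantile normalization and 4871 and 4729 after centring each array on its median.

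**Figure D1:**
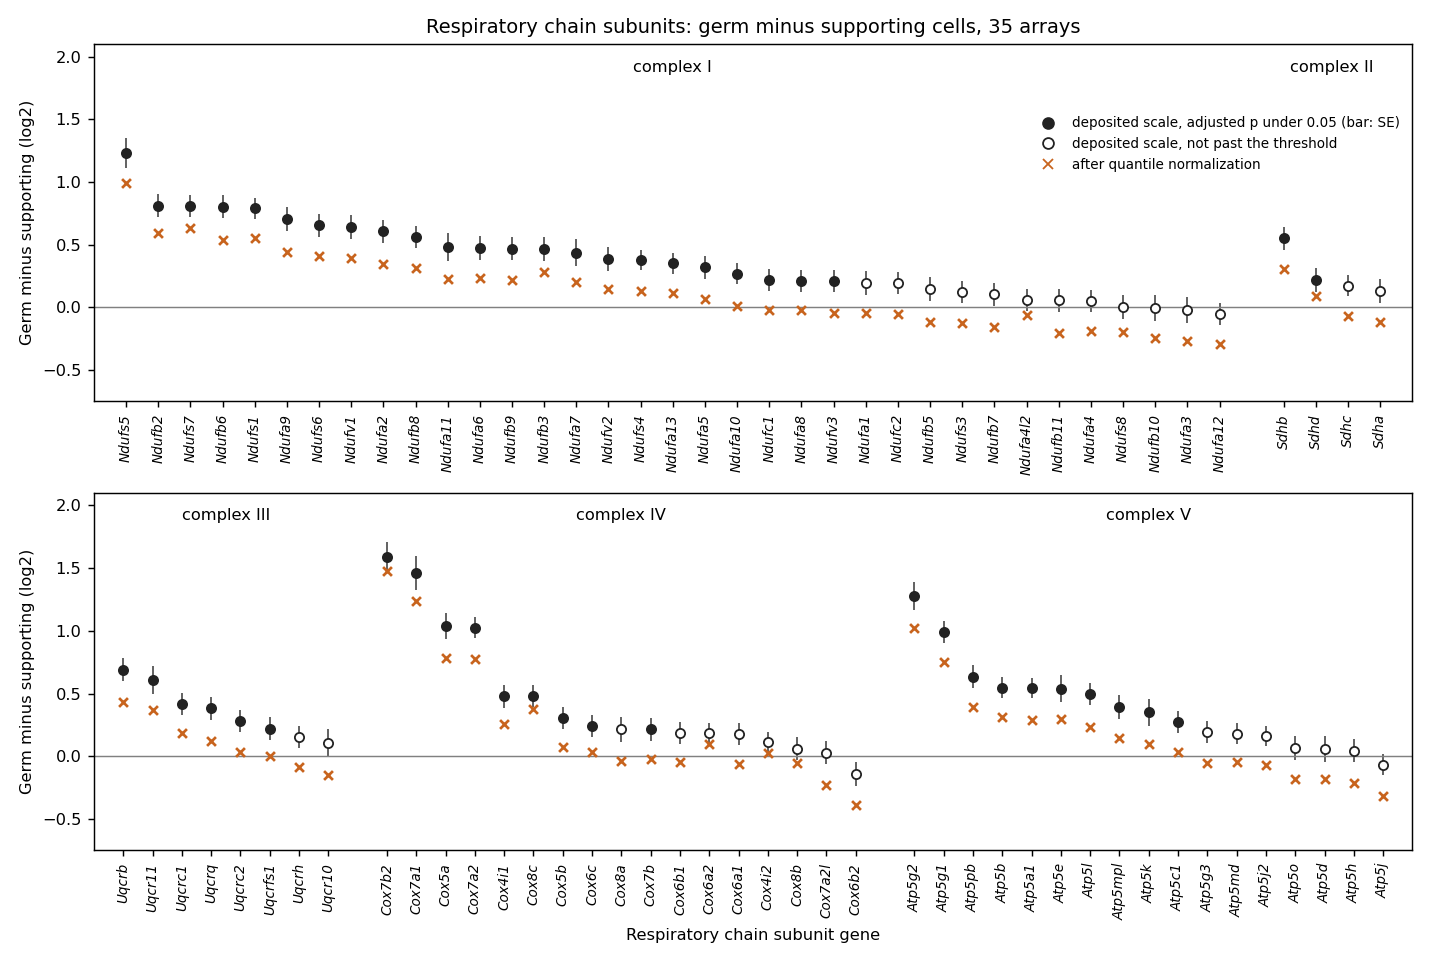
Difference between germ and supporting cells (log2, vertical axis) for each of the 81 subunit genes (horizontal axis), sorted within complexes. Filled circles passed an adjusted p of 0.05 in limma on the deposited values, open circles did not, bars are the standard error, and crosses are the same difference after quantile normalization. Cox7b2 at 1.59 and Cox7a1 at 1.46 stood highest, and the crosses lie below the circles throughout.

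Whole-array level moved with the members. The median member level per array, relative to each gene's mean over the 12 groups, ran from -0.34 to 0.42 on germ arrays and from -0.44 to 0.06 on supporting arrays. Across the 35 arrays it correlated with the array median (r = 0.746) and with the level of the cytosolic ribosomal protein genes (r = 0.922). These values share array and labelling, so they are given as a description only, and their part in the differences was not tested. Of 64 cytosolic ribosomal protein genes 52 were higher in germ cells and 0 lower (median 0.31), against 32.9% and 20.3% of all genes. After quantile normalization 21 were higher and 2 lower (median 0.08), against 24.8% and 30.0%. In bulk arrays, fewer cells of a type and less RNA per cell cannot be told apart.

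Complex I held its largest difference in Ndufs5, an accessory subunit. Its level ran from 9.64 to 11.15 with a median of 10.69 on germ arrays, against 8.35 to 10.41 with a median of 9.61 on supporting arrays. The ranges overlapped, although 14 of 17 germ arrays lay above every supporting array. The difference was 1.23 ± 0.12 (log2 ± SE, limma adjusted p 9.1e-13). Ndufb2, an accessory subunit of the membrane arm, was higher in germ cells by 0.81 ± 0.09, and Ndufs7, an iron-sulfur core subunit, by 0.80 ± 0.09. The iron-sulfur core subunit Ndufs1 and the flavin-binding core subunit Ndufv1 were also higher, by 0.79 and 0.64. All 5 of these genes were called after quantile normalization too. At the other end, Ndufs8 (0.00), Ndufb10 (-0.01 on the deposited scale) and Ndufa3 (-0.02) showed no called difference on that scale. Ndufa4, whose protein is now placed in cytochrome c oxidase, and its relative Ndufa4l2 stood at 0.05 and 0.06 and were not called. Ndufa4l2 was dim, with medians of 5.691 on germ and 5.679 on supporting arrays.

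Complex II, the smallest, showed its difference in the iron-sulfur subunit Sdhb. Levels of Sdhb ran from 9.81 to 10.65 (median 10.25) on germ arrays and from 9.20 to 10.97 (median 9.62) on supporting arrays. The highest supporting array lay above every germ array. The difference was 0.55 ± 0.09 (limma adjusted p 4.74e-07) and remained called after quantile normalization at 0.30. Sdhd, a membrane anchor, was called on the deposited scale (0.22 ± 0.09, limma adjusted p 0.0454) but not after quantile normalization (0.09). The flavoprotein Sdha (0.13) and the other anchor Sdhc (0.17) did not pass the test on the deposited scale. No complex II gene was called in any comparison between stages or sexes.

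In complex III, Uqcrb, a small subunit near the ubiquinone site, ran from 11.10 to 12.09 (median 11.57) on germ arrays and from 10.55 to 11.54 (median 10.91) on supporting arrays. It was higher in germ cells by 0.69 ± 0.09 (limma adjusted p 3.7e-09), and its other probe sets gave 0.66 and 0.74. The small subunit Uqcr11 differed by 0.61 ± 0.11 and the core protein Uqcrc1 by 0.42 ± 0.09. Those 3 were the complex III genes called on both scales. Uqcrfs1, the Rieske iron-sulfur protein, was called at 0.22 on the deposited scale and stood at 0.00 after quantile normalization.

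Complex IV held the widest spread, from -0.14 to 1.59. Cox7b2, the isoform of Cox7b known from testis, ran from 5.24 to 7.44 (median 6.43) on germ arrays and from 4.57 to 5.63 (median 4.82) on supporting arrays. All but 1 of the 17 germ arrays lay above every supporting array, the exception being replicate 2 of XY germ cells at TS24. Its difference of 1.59 ± 0.12 (limma adjusted p 1.11e-16) was 1.48 after quantile normalization. Cox7b itself was called at 0.21 ± 0.09 on the deposited scale and stood at -0.02 after quantile normalization. Its other probe set gave 0.54, so the size for Cox7b depended on the probe set.

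Cox7a1, the isoform of heart and skeletal muscle, ran from 8.61 to 11.45 (median 10.60) on germ arrays and from 7.20 to 10.91 (median 9.01) on supporting arrays. The difference was 1.46 ± 0.13 (limma adjusted p 8.52e-14). Its ubiquitous counterpart Cox7a2 was also higher in germ cells, by 1.02 ± 0.08, while the related Cox7a2l, a factor of supercomplexes, stood at 0.03 and was not called. Cox5a, a subunit with no such isoform, ran from 10.81 to 12.41 (median 11.65) on germ arrays and from 10.10 to 10.96 (median 10.64) on supporting arrays. Only 1 germ array fell within the supporting range, and the difference was 1.04 ± 0.10 (limma adjusted p 6.64e-13).

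The remaining isoform pairs of complex IV behaved differently from each other. Cox4i1 was called higher in germ cells (0.48), and its lung isoform Cox4i2 was not (0.11). Neither Cox6a1 (0.18) nor its muscle isoform Cox6a2 (0.18) passed the test. Cox8c, an isoform known from testis, was higher by 0.48 ± 0.09 at levels of 6.08 to 7.20 in germ cells and 5.76 to 6.49 in supporting cells, whereas Cox8a (0.22) and the muscle isoform Cox8b (0.06) were not called. Cox6b1 (0.18) and the testis isoform Cox6b2 (-0.14) were not called on the deposited scale either, and Cox6b2 differed between the sexes of supporting cells instead. Cox4i2, Cox6a2 and Cox8b were dim, with medians of 6.572, 6.865 and 5.849 on germ arrays and 6.612, 6.791 and 5.788 on supporting arrays. These levels stood near or below the array medians of 6.41 to 6.84, so the small differences say little about these isoforms.

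In complex V the largest differences fell on the genes for subunit c, the ring that turns in the membrane. Atp5g2 ran from 10.74 to 12.37 (median 11.89) on germ arrays and from 9.97 to 10.82 (median 10.50) on supporting arrays, a difference of 1.28 ± 0.11 (limma adjusted p 3.45e-14). Its other probe sets gave 1.20 and 1.06. Atp5g1 differed by 0.99 ± 0.09, and its other probe set by 0.96. Atp5g3, which encodes the same mature protein as the other two, differed by 0.19 ± 0.09 and was not called (limma adjusted p 0.0609). Atp5pb, subunit b of the peripheral stalk, was higher by 0.64 ± 0.09, and the catalytic subunits Atp5a1 and Atp5b by 0.54 and 0.55. Atp5d, Atp5h, Atp5o and Atp5j, which build the central and peripheral stalks, stood between -0.07 and 0.07 and were not called.

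Genes that act with the chain were read from lists. The 2 mitochondrially encoded subunits on the array, COX2 and ND3, differed by 0.02 and 0.02 and were not called on the deposited scale, and after quantile normalization both were lower in germ cells (-0.20 and -0.22). Set beside the 32.9% higher and 20.3% lower of all genes, 23 of 40 assembly factors were higher in germ cells and 5 lower (median 0.25). After quantile normalization, with 24.8% and 30.0% of all genes, 18 were higher and 11 lower (median 0.13). Among 10 genes of cytochrome c and ubiquinone synthesis 6 were higher and 0 lower (median 0.51), and the counts were the same after quantile normalization (median 0.32). Cyct, the cytochrome c of testis, differed by 5.68 ± 0.10 and the somatic Cycs by 0.58 ± 0.09. For maintenance and transcription of the mitochondrial genome 8 of 10 were higher and 1 lower (median 0.63), with Tefm, an elongation factor, at 1.45 and the DNA-packaging factor Tfam at 0.78. After quantile normalization 7 were higher and 1 lower (median 0.48).

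Of 10 nuclear regulators 6 were higher and 2 lower, against 32.9% and 20.3% of all genes. After quantile normalization 5 were higher and 2 lower, against 24.8% and 30.0%. The same background shares apply to the other lists of this paragraph. The coactivator Ppargc1a was lower in germ cells by -1.65 ± 0.10 and its relative Pprc1 higher by 2.19 ± 0.09. Nrf1 and Gabpa, whose motif cores were counted above, were higher by 0.39 and 0.54, and Yy1 was lower by -0.54. Of 12 genes of the tricarboxylic acid cycle 8 were higher and 1 lower (median 0.41), and 6 were higher and 3 lower after quantile normalization (median 0.19). Mitochondrial ribosomal proteins had 64 of 77 higher and 5 lower on the deposited scale, and 48 higher and 9 lower after quantile normalization. Their median of 0.45 stood above that of the respiratory subunits, a difference that was not tested.

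**Figure D2:**
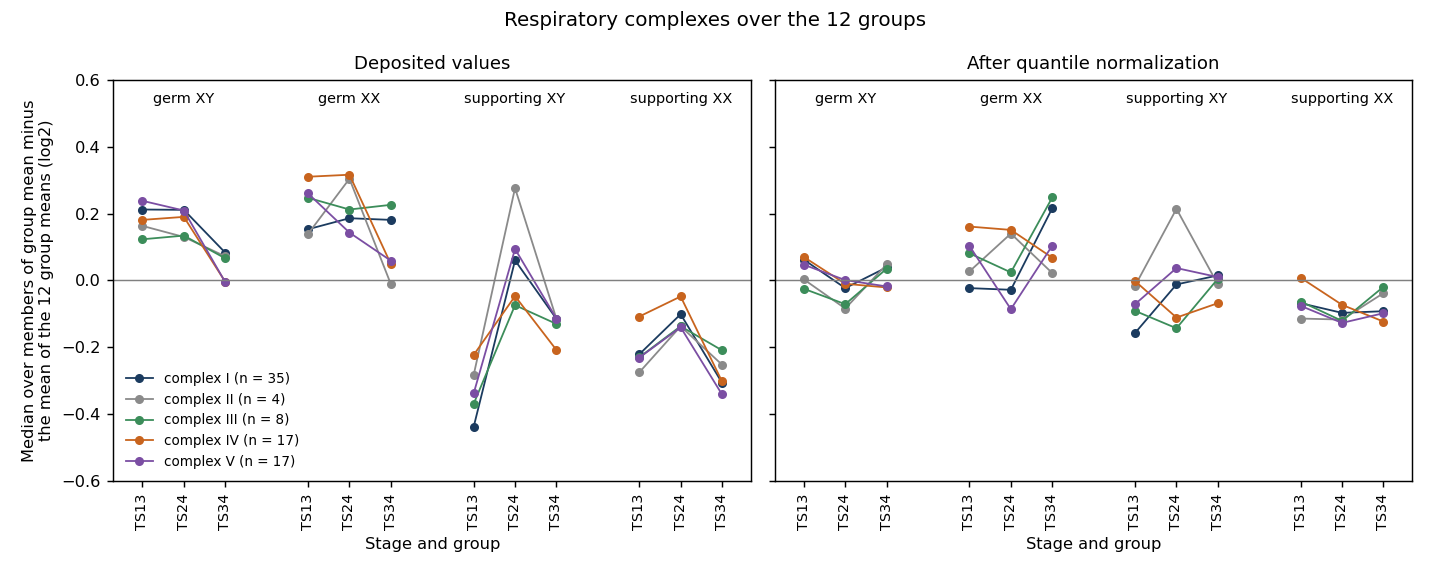
Median over the members of each complex (log2, vertical axis) of the group mean minus the gene's mean over the 12 groups, for germ XY, germ XX, supporting XY and supporting XX cells at TS13, TS24 and TS34, on deposited values (left) and after quantile normalization (right). On the deposited scale germ groups lie mostly above supporting groups, and complex I in XY supporting cells stands at -0.44 at TS13, 0.06 at TS24 and -0.12 at TS34. After quantile normalization XX germ cells at TS34 have the highest points of complexes I and III, at 0.22 and 0.25.

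The range of the 12 group means had a median of 0.91 over the members and 0.85 over all genes tested, and exceeded 1 for 33 of the 81 members (40.7%), against 42.2% of all genes. Whether members and other genes differed in range was not tested. Cox7a1 had the widest range at 3.25, followed by Cox7b2 at 2.54, Ndufs5 at 2.17, Cox6b2 at 2.01 and Atp5g2 at 1.84. Cox8b had the narrowest, at 0.34. On the deposited scale the median of all members, relative to each gene's mean, was 0.21, 0.19 and 0.01 in XY germ cells at TS13, TS24 and TS34 and 0.21, 0.21 and 0.12 in XX germ cells. It was -0.36, 0.01 and -0.12 in XY supporting cells and -0.20, -0.09 and -0.30 in XX supporting cells at the same stages. By array, the member level of XY germ cells was -0.342, 0.222 and 0.194 at TS34 and 0.421, -0.055 and 0.404 at TS13. These overlapped, and the low array of TS34, replicate 1, also had the lowest array median, at 6.41.

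After quantile normalization the order of stages changed. The median was then 0.05, -0.01 and 0.00 in XY germ cells at TS13, TS24 and TS34 and 0.07, 0.02 and 0.16 in XX germ cells, so that TS34, the lowest stage of XX germ cells on the deposited scale, was the highest. Supporting cells had -0.10, -0.07 and 0.00 in XY and -0.04, -0.09 and -0.09 in XX cells. In XY supporting cells complex II, with its 4 genes, stood at -0.02, 0.21 and -0.01 at the 3 stages.

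**Figure D3:**
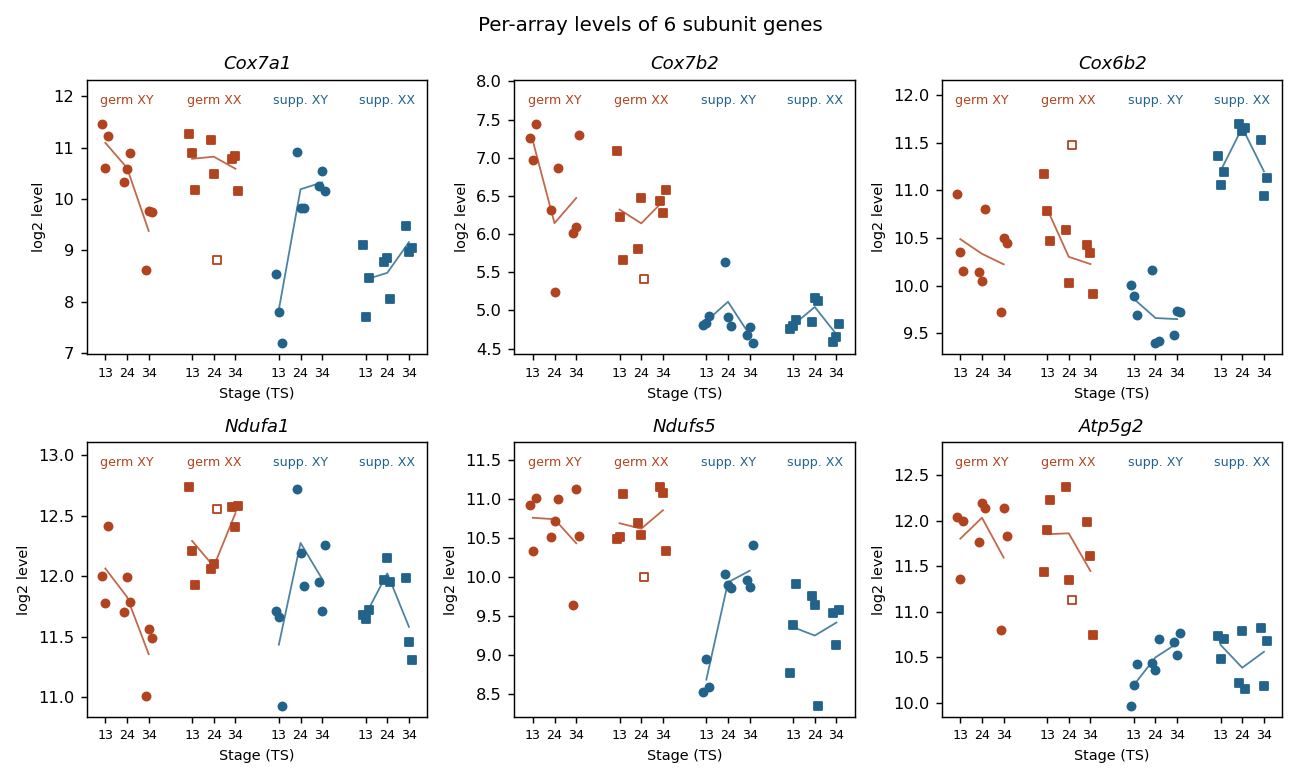
Levels (log2, vertical axis) of 6 subunit genes on each array by stage, with germ cells left of supporting cells and XY left of XX. Points are arrays, lines join the group means, and the open square is the array of XX germ cells at TS24 that was left out. Cox7a1 stands lowest at TS34 among the XY germ groups and highest at TS24 and TS34 among the supporting groups in XY cells, and the XX supporting arrays of Cox6b2 all lie above the XY supporting arrays.

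The change of germ cells with stage was compared with that of supporting cells by a test of the difference of differences. Germ minus supporting at TS34, minus the same at TS13, was negative and called for 7 of the 81 members and positive for 0. Of all genes 12% were called lower and 4.69% higher, and after median centring, where 12 members were lower and 0 higher, the shares were 13.3% and 6.06%. Either way the members' share was near the background. The median was -0.25 over the members and -0.07 over all genes. Cox7a1 (-2.56 ± 0.32, limma adjusted p 2.38e-08) and Atp5d, the delta subunit of the ATP synthase stalk (-0.85 ± 0.24, limma adjusted p 0.00818), were called on both scales. Ndufs5 (-0.81), Ndufs6 (-0.67), Atp5g1 (-0.66), Cox6b1 (-0.60) and Atp5c1 (-0.57) were called on the deposited scale alone. Quantile normalization thus left 2 members lower and 0 higher, against 9.94% and 7.84% of all genes. With single arrays left out in turn, Ndufs5 lost its call in 18 of 35 fits and Atp5c1 in 15.

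Cox7a1 fell with stage in XY germ cells and rose with stage in XY supporting cells. In XY germ cells it stood at 8.61, 9.77 and 9.75 on the arrays of TS34, against 11.45, 10.60 and 11.22 at TS13. The groups did not overlap, and replicate 1 of TS34 was the lowest. The difference of -1.72 ± 0.32 (limma adjusted p 0.000124) passed the test on both scales. In XX germ cells the levels were 10.78, 10.83 and 10.16 at TS34 and 11.26, 10.90 and 10.18 at TS13, which overlapped, and the difference was -0.19 ± 0.32 (limma adjusted p 0.662).

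In XY supporting cells Cox7a1 stood at 10.26, 10.55 and 10.16 at TS34, against 8.53, 7.81 and 7.20 at TS13. Every array of TS34 lay above every array of TS13, and the difference was 2.48 ± 0.32 (limma adjusted p 6.42e-08). At TS24 the 3 values were 10.91, 9.82 and 9.83, so the higher level was present at the stage from which the other mouse line was used. XX supporting cells, which kept their line, had 9.46, 8.97 and 9.04 at TS34 and 9.11, 7.71 and 8.47 at TS13. These overlapped, and their difference of 0.73 ± 0.32 did not pass the test (limma adjusted p 0.298).

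Steroidogenic, stromal and germ markers moved with the XY supporting groups. The mean level of the 4 markers on the array (Star, Cyp11a1, Cyp17a1 and Hsd3b1) ran from 6.91 to 7.21 at TS34 and from 5.95 to 6.16 at TS13 in XY supporting cells, and 3 of the 4 were called higher. Cyp17a1 averaged 7.47 there at TS34 and 5.07 to 5.79 in the other groups. At TS24 the same mean ran from 5.89 to 6.42 while Cox7a1 was already at its higher level. The mean of the 5 stromal and interstitial markers ran from 7.07 to 7.27 at TS34 and from 7.69 to 7.79 at TS13, and 2 of the 5 were called lower. Pdgfra averaged 9.66, 7.62 and 7.08 and Nr2f2 8.40, 7.16 and 7.41 at TS13, TS24 and TS34, so both, like Cox7a1, had moved by TS24. The mean of the 5 germ markers ran from 5.52 to 5.62 at TS13, 5.89 to 6.05 at TS24 and 6.21 to 6.27 at TS34. In XX supporting cells it ran from 5.51 to 5.74, 5.75 to 6.71 and 6.01 to 6.88 at these stages. The part of all these markers in the Cox7a1 difference was not tested.

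Beside Cox7a1, 4 members were higher at TS34 than at TS13 in XY supporting cells and 0 lower, which makes 5 of 81. Of all genes 7.39% were called higher and 2.64% lower. After median centring 11 members were higher and 0 lower, against 9.11% and 3.15% of all genes, so the members' count relative to the background depended on the scaling. After quantile normalization 4 members were higher and 0 lower, against 6.81% and 4.08% of all genes, and Ndufs6 was the gene that lost its call. Ndufs5 stood at 9.96, 9.86 and 10.41 at TS34, against 8.52, 8.94 and 8.58 at TS13. Its groups lay apart, with a difference of 1.40 ± 0.29 (limma adjusted p 0.000463) that was called on both scales. Atp5o, the stalk protein that confers oligomycin sensitivity, differed by 0.77 ± 0.24, Ndufa2 by 0.72 ± 0.22 and Ndufs6 by 0.65 ± 0.21. Without replicate 3 of TS13, Atp5o (0.68, adjusted p 0.134 in limma), Ndufa2 (0.47, 0.359) and Ndufs6 (0.43, 0.413) lost their calls. Each of these 3 also lost its call without replicate 1 or without replicate 3 of TS34, at 0.69, 0.63 and 0.61 in the last case. The median over the members was 0.22, against 0.03 over all genes.

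XX supporting cells had 0 of 81 members called between TS34 and TS13 by limma, and 4 members had an unadjusted p under 0.05. Of all genes 2.66% were called higher and 1.97% lower. Cox7a1 showed the largest positive difference among them, as given above. The lists of mitochondrial and ribosomal genes were likewise without a call in that comparison on the deposited scale, from 0 of 40 assembly factors to 0 of 77 mitochondrial ribosomal proteins. In XY supporting cells 5 of 40 assembly factors, 2 of 10 electron carriers and 11 of 77 mitochondrial ribosomal proteins were higher at TS34, with 0 lower in each. Over all genes on the deposited scale, 7.39% were called higher and 2.64% lower in that comparison. Ppargc1a was lower there by -1.38 ± 0.23, and Uqcc1, an assembly factor of complex III, was higher by 0.97 ± 0.25.

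**Figure D4:**
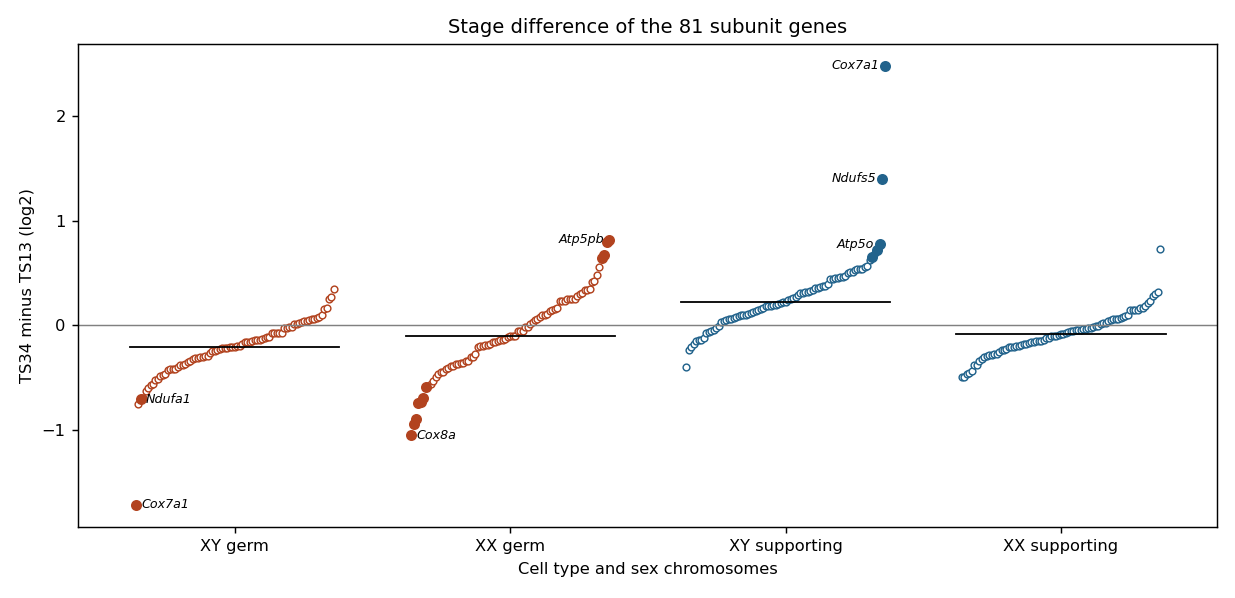
Difference of TS34 minus TS13 (log2, vertical axis) for the 81 subunit genes in XY germ, XX germ, XY supporting and XX supporting cells, sorted within each. Filled points passed an adjusted p of 0.05 in limma and the black bar is the median over members, at -0.20, -0.10, 0.22 and -0.08. XX germ cells have calls at both ends, XY supporting cells at the upper end alone, and XX supporting cells have none.

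In XX germ cells members were called in both directions, at shares near the background. At TS34, compared with TS13, 4 of the 81 members were higher (4.94%) and 7 lower, against 6.64% and 10.9% of all genes. Subunit b of the ATP synthase, Atp5pb, stood at 11.57, 11.78 and 11.41 at TS34, against 10.66, 11.09 and 10.57 at TS13, a difference of 0.82 ± 0.22 (limma adjusted p 0.00661) with the arrays apart. Uqcrc2, a core protein of complex III, stood at 10.86, 10.87 and 10.78 at TS34 and at 10.24, 9.99 and 9.88 at TS13. These arrays were apart as well, and Uqcrc2 differed by 0.80 ± 0.21. Uqcrc1, the other core protein, and Ndufb6 were higher by 0.67 ± 0.21 and 0.64 ± 0.22.

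Cox8a fell most, with 9.61, 9.83 and 8.84 at TS34 and 10.78, 10.44 and 10.21 at TS13. No arrays overlapped, and the difference was -1.05 ± 0.24 (limma adjusted p 0.000971). Cox7b (-0.94), Atp5g1 (-0.90), Atp5d (-0.74), Uqcrq (-0.74), Cox6b1 (-0.70) and Atp5l (-0.60) were the other genes that fell. Replicate 3 of TS34 was the lowest of its group in all 11 called genes, and without it Atp5d, Uqcrq, Cox6b1 and Atp5l lost their calls, at -0.60, -0.49, -0.53 and -0.37. Without replicate 2 of TS34 the calls of Atp5pb (0.72), Uqcrc1 (0.57), Ndufb6 (0.61), Atp5d (-0.77) and Atp5l (-0.68) were lost. Cox8a, Cox7b, Atp5g1 and Uqcrc2 stayed called with any single array left out. The median over the members was -0.10, against -0.14 over all genes, and after quantile normalization it turned to 0.05, against -0.06.

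After quantile normalization 9 members were higher and 6 lower in XX germ cells, against 11.5% and 9.91% of all genes. Among them were 10 of the 11 calls of the deposited scale, all but Atp5l. The 5 added calls were all higher at TS34, namely Ndufa9, Ndufb9, Ndufs1 and Ndufv1 of complex I and Atp5j of complex V. Of 40 assembly factors 0 were higher and 6 lower on the deposited scale, against 6.64% and 10.9% of all genes. Among the 6 were Uqcc1 (-1.16) and Coa7 (-1.15), and Tfam was lower by -1.14. Erythroid and endothelial markers moved with stage: the mean of the 2 erythroid genes Hbb-y and Alas2 ran from 6.28 to 7.16 at TS34 and from 8.01 to 8.75 at TS13, and that of the 4 endothelial genes from 6.39 to 6.84 and from 7.08 to 7.23 at the same stages. Of the erythroid markers 1 of 2 was called lower and of the endothelial ones 1 of 4. The level of the endothelial list in germ cells rested on Pecam1, which averaged 9.23 to 10.78 in the germ groups and 6.72 to 6.93 in the supporting groups, while Cdh5, Kdr and Tek averaged 4.96 to 6.76 in the germ groups. The part of these markers in the stage differences was not tested.

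In XY germ cells 2 members were lower at TS34 than at TS13 and 0 higher, against 4.81% and 3.33% of all genes. After quantile normalization 1 member was lower and 0 higher, against 4.93% and 5.22%, and after median centring 5 were lower and 0 higher, against 5.69% and 4.63%. Beside Cox7a1 the deposited scale called Ndufa1, an X-linked accessory subunit needed for assembly of complex I. It stood at 11.01, 11.57 and 11.49 at TS34, against 11.998, 11.78 and 12.41 at TS13, with no overlap, and differed by -0.71 ± 0.23 (limma adjusted p 0.0384). The call was lost after quantile normalization (-0.57, adjusted p 0.0574 in limma), without replicate 1 of TS34 (-0.53, 0.242), and without replicate 1 (-0.74, 0.0713) or replicate 3 (-0.53, 0.291) of TS13. The erythroid mean ran from 6.65 to 7.36 at TS34 and from 8.09 to 8.72 at TS13 in XY germ cells, and the endothelial mean from 6.16 to 6.60 and from 6.90 to 7.25, and their part in these differences was not tested. The median over the members was -0.20, against -0.04 over all genes.

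Sex was compared within each cell type and stage. In germ cells at TS13, 0 of 81 members were called between XY and XX by limma, 1 had an unadjusted p under 0.05, and 0.0285% of all genes were called higher and 0% lower. At TS24 limma called 0 members on the deposited scale, with 11 at an unadjusted p under 0.05, against 0.495% of all genes higher and 1.46% lower. That comparison used 2 XX arrays. After quantile normalization Ndufa7 was higher in XY germ cells (0.93), and Ndufa13, Uqcrb and Atp5a1 were lower (-0.64, -0.70 and -0.61), against 1.07% of all genes higher and 3.14% lower. Median centring gave 1 member higher and 1 lower, against 1.2% and 2.97% of all genes.

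At TS34 XY germ cells had 4 members below XX germ cells and 0 above, against 4.46% and 6.04% of all genes. Ndufa1 stood at 11.01, 11.57 and 11.49 in XY cells, against 12.57, 12.41 and 12.58 in XX cells, a gap with no overlap and a difference of -1.16 ± 0.23 (limma adjusted p 0.000182). On the probe sets used, the other 2 X-linked members did not follow it. Ndufb11 differed by -0.10 ± 0.22 and Cox7b by 0.18 ± 0.21, and neither was called. Both genes had another probe set, whose value in this comparison is not given here. Whether the sets used read the X-linked genes or copies elsewhere in the genome cannot be told here. Cox7a1 stood at 8.61, 9.77 and 9.75 in XY cells and 10.78, 10.83 and 10.16 in XX cells, also apart, and differed by -1.21 ± 0.32 (limma adjusted p 0.00751). That call was lost without replicate 1 of XY germ cells (-0.83, adjusted p 0.0993 in limma), without replicate 2 of XX germ cells (-1.09, 0.051) and with all 36 arrays (-1.21, 0.0756).

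Atp5pb stood at 10.53, 11.14 and 10.79 in XY germ cells at TS34, against 11.57, 11.78 and 11.41 in XX germ cells. Uqcrc2 stood at 9.72, 10.29 and 10.28 in XY cells, against 10.86, 10.87 and 10.78 in XX cells. Neither gene overlapped between the sexes, and they differed by -0.77 ± 0.23 and -0.74 ± 0.21. Without replicate 1 of XY germ cells both lost their calls (-0.62 and -0.55), and likewise without replicate 2 of XX germ cells (-0.67 and -0.72). Atp5pb also lost its call with the mean of its probe sets (-0.554, adjusted p 0.0748 in limma). Both had risen with stage in XX germ cells, a comparison that shares the XX arrays of TS34. All 4 genes were called after quantile normalization, which added Ndufb6, Cox5a and Cox8c as lower and Ndufv3 as higher in XY, against 6.47% of all genes lower and 6.40% higher. Median centring likewise gave 7 members lower and 1 higher, against 6.04% and 6.40% of all genes.

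In supporting cells Cox6b2, the testis isoform of Cox6b1, differed between the sexes at every stage, with the lower level in XY cells. At TS13 it stood at 10.01, 9.89 and 9.69 in XY cells and at 11.37, 11.06 and 11.19 in XX cells. TS24 gave 10.16, 9.40 and 9.42 in XY cells, against 11.69, 11.62 and 11.65 in XX cells. TS34 gave 9.48, 9.74 and 9.73 in XY cells, against 11.53, 10.95 and 11.12 in XX cells. Every XX array lay above every XY array at each stage.

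The differences of Cox6b2, XY minus XX, were -1.34 ± 0.24 at TS13 (limma adjusted p 8.48e-05), -2.00 ± 0.24 at TS24 (2.27e-09) and -1.55 ± 0.24 at TS34 (1.1e-06). All 3 were called on both scales and with any single array left out. At TS13 both sexes came from the same mouse line, so the difference there was measured within a line. The mean of the 5 stromal and interstitial markers ran there from 7.69 to 7.79 in XY and from 7.61 to 7.73 in XX supporting cells. Single markers went either way, with Pdgfra averaging 9.66 in XY and 7.85 in XX cells, and Nr2f2 8.40 and 9.53. Hbb-y averaged 9.71 and 7.62, and Cyp11a1 6.85 and 7.83. The part of these markers in the difference was not tested. Germ cells showed no called sex difference in Cox6b2, with levels from 9.72 to 11.17 over their 17 arrays. On the left-out array, labelled XX germ at TS24 but with a somatic profile, Cox6b2 stood at 11.47 and Cox7a1 at 8.80, both within the range of XX supporting arrays. That array could not be placed in a group of the study. Its stromal markers Dcn (10.12), Tcf21 (10.83), Pdgfra (10.6) and Nr2f2 (10.47) lay above the mean of each of the 12 groups, and its Fst, at 10.82, lay below the XX supporting means of 11.43 to 12.24.

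Cox6b2 was the 1 member called at TS13 in supporting cells, against 1.84% of all genes higher and 1.94% lower, or 3.22% and 2.01% after quantile normalization, where it again was the 1 call. TS24 added Cox7a1, higher in XY cells by 1.63 ± 0.32 (limma adjusted p 0.000116), against 9.75% of all genes higher and 5.58% lower. After quantile normalization Ndufs4 (-0.50) and Atp5md (-0.58) were called as well, against 10.7% of all genes higher and 7.30% lower. Median centring gave 8 members higher and 2 lower in XY cells at TS24, against 12.1% and 6.30% of all genes, and 10 higher and 1 lower at TS34, against 11.3% and 5.94%. At TS34 Cox7a1 was higher by 1.16 ± 0.32 (limma adjusted p 0.00762) and Ndufb10, an accessory subunit of complex I, by 0.79 ± 0.26, at 10.03, 10.29 and 10.27 in XY cells and 9.84, 9.12 and 9.27 in XX cells. Ndufb10 lost its call in 4 of 35 fits with single arrays left out, at 0.64 to 0.75, and with all 36 arrays both Cox7a1 (adjusted p 0.0712 in limma) and Ndufb10 (0.0829) did. Background shares there were 8.24% higher and 5.74% lower. Quantile normalization added Cox7a2l (-0.53), against 9.85% of all genes higher and 7.13% lower. Cox7a1 stood at 10.91, 9.82 and 9.83 in XY cells and at 8.77, 8.85 and 8.05 in XX cells at TS24, which were apart, as were the arrays of TS34. At TS13, within a single line, the difference was -0.58 ± 0.32 and was not called.

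With the sex comparisons at TS24 and TS34 the lists moved as well. At TS34 the 4 steroidogenic markers were all called higher in XY supporting cells, with a mean of 6.91 to 7.21 in XY and 5.66 to 5.74 in XX cells, and at TS24 1 of 4 was called, with 5.89 to 6.42 in XY and 5.55 to 6.14 in XX cells. Of the stromal and interstitial markers 0 of 5 were called at TS34, with a mean of 7.07 to 7.27 in XY and 6.92 to 7.10 in XX cells. At TS24 that mean ran from 6.85 to 7.24 in XY and from 6.96 to 7.38 in XX cells. Behind it single markers went opposite ways, with Nr2f2 averaging 7.16 in XY and 8.70 in XX cells, and Pdgfra 7.62 and 6.82. Their part in the differences was not tested. Cycs was higher in XY supporting cells at TS34 by 1.53 ± 0.23 and Ppargc1a by 2.19 ± 0.23. Of 77 mitochondrial ribosomal proteins 13 were higher and 0 lower there, against 8.24% and 5.74% of all genes.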

How the data were processed

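The 36 arrays were read from 1 table of values that the authors deposited as log2 expression per probe set. Per the submitters' processing notes these values came from RMA, whose version is not given in the sources used here. Array medians differed, and values of different probe sets were compared only in the filter on dim genes and to mark dim isoforms. All 36 columns were mapped to samples by their labels (0 unmapped). Of 35557 probe sets, 21789 had 1 symbol in the platform annotation, 1621 had several and 12147 were not listed. Symbols were updated through Entrez identifiers for 21698 probe sets. Genes above the 25th percentile of the array on at least 3 arrays were tested (17571; 2367 removed).

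All 12 comparisons came from 1 limma fit (limma 3.58.1, R 4.3.3) with a mean for each of the 12 groups over 35 arrays, with 23 residual degrees of freedom. Benjamini-Hochberg adjustment ran over all genes tested, and called means an adjusted p under 0.05. The median standard error of a difference of 3 against 3 arrays was 0.211, and the number of arrays limits the precision. The procedure was tested on simulated data.

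Named in the text were, per complex in germ against supporting cells, up to 3 called members at each end, in the other comparisons up to 4 at each end, and a list of isoforms with their partners and complex II. Other genes named were chosen after their values were seen. The members and lists were chosen with earlier results of these data known. Alternatives were all 36 arrays, quantile normalization, median centring, other filters, the mean of all probe sets, a replicate block and leaving out each array. Interstitial cells, which the study design also names, were not analysed here.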

Additional observations from a re-analysis of the deposited data

Results flagged for a closer look

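For 7 members the difference between germ and supporting cells itself differed between TS34 and TS13, by a test of the difference of differences in limma (adjusted p under 0.05 over all genes tested). The value, germ minus supporting at TS34 minus the same at TS13 on the log2 scale, was -2.56 for Cox7a1, -0.85 for Atp5d, -0.81 for Ndufs5, -0.67 for Ndufs6, -0.66 for Atp5g1, -0.6 for Cox6b1 and -0.57 for Atp5c1. After quantile normalization Cox7a1 (-2.40) and Atp5d (-0.64) passed the test, and the other 5 did not. XY supporting cells came from different mouse lines at TS34 and TS13, so stage and line cannot be told apart in the supporting part of these values.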

How the results depend on the processing

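The number of called members stayed within 1.5 times in all 12 comparisons under both other filters, the mean of all probe sets and the replicate block. The mean of all probe sets did remove 4 single calls. These were Ndufc1 in germ minus supporting, Atp5g1 in the difference of differences, Atp5l in XX germ stage and Atp5pb in germ sex at TS34. The number of called members moved as follows. Under quantile normalization the difference of differences had 2 calls, XY germ stage 1, germ sex at TS24 4, germ sex at TS34 8 and supporting sex at TS24 4, against 7, 2, 0, 4 and 2 on the deposited scale. Under median centring the counts were 12 for the difference of differences, 5 for XY germ stage, 11 for XY supporting stage, 2 and 8 for germ sex at TS24 and TS34, and 10 and 11 for supporting sex at TS24 and TS34. With all 36 arrays XY germ stage had 1, XY supporting stage 3 and supporting sex at TS34 1. Germ minus supporting reversed under quantile normalization for Cox7b (-0.02), Ndufa8 (-0.022), Ndufc1 (-0.02), Ndufv3 (-0.042) and Uqcrfs1 (-0.001), none of them called there. Among the 85 called member results, 58 kept direction and call under quantile normalization, 78 under centring and 72 with all 36 arrays. The causes of these changes were not tested.

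With single arrays left out in turn, the counts ran from 44 to 58 for germ minus supporting, 2 to 13 for the difference of differences, 6 to 12 for XX germ stage, 1 to 6 for XY germ stage, 0 to 0 for XX supporting stage, 2 to 6 for XY supporting stage, 0 to 0, 0 to 1 and 1 to 6 for germ sex at TS13, TS24 and TS34, and 1 to 2, 2 to 5 and 2 to 6 for supporting sex at the same stages. The difference of differences had 2 calls without replicate 3 of XX germ or replicate 1 of XX supporting cells at TS34, 3 without replicate 1 of XY germ cells at TS34 or of XY supporting cells at TS13, and 4 without replicate 1 of XY germ, replicate 2 of XX supporting or replicate 3 of XY supporting cells at TS13 or replicate 3 of XY supporting cells at TS34. It had 11 without replicate 1 of XX germ and 13 without replicate 2 of XY germ cells at TS34. XX germ stage had 6 without replicate 2 of TS34. XY germ stage had 1 without replicate 1 or 3 of TS13 or replicate 1 of TS34, 6 without replicate 2 of TS13 and 5 without replicate 3 of TS34. XY supporting stage had 2 without replicate 3 of TS13 or replicate 1 or 3 of TS34, and 3 without replicate 2 of TS34. Germ sex at TS24 had 1 without replicate 1 or 3 of XY germ cells at TS34, replicate 3 of XX supporting cells at TS24 or replicate 3 of XY supporting cells at TS13. Germ sex at TS34 had 1 without replicate 2 of XX germ and 6 without replicate 1 of XY germ cells. Supporting sex at TS13 had 2 without replicate 2 of XY supporting cells at TS13, replicate 1 or 2 of XX germ or replicate 2 of XX supporting cells at TS24, or replicate 1 or 2 of XY germ cells at TS34. Supporting sex at TS24 had 5 without replicate 1 of XX or replicate 2 or 3 of XY supporting cells, and at TS34 it had 6 without replicate 1 of XY germ and 5 without replicate 1 of XX supporting cells.

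Same-numbered arrays deviated together in 3 of 66 pairs of groups, so the numbers were not taken as pairs. With the replicate number as a block, 47 members were called in germ minus supporting, 8 in the difference of differences, 10 in XX germ stage, 2 in XY germ stage, 0 in XX supporting stage, 5 in XY supporting stage, 0, 0 and 4 in germ sex and 1, 2 and 4 in supporting sex at TS13, TS24 and TS34. Over all genes, XY germ stage had 947 calls with all 36 arrays and 1430 with 35, and supporting sex at TS13 had 397 and 664. Germ sex at TS24 had 344 calls, against 767 with all 36 arrays, 739 after quantile normalization, 732 after centring, 88 without replicate 2 of XX and 143 without replicate 2 of XY germ cells. Array number limits what can be called between groups of 3, where the standard error was 0.211.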
